A study of Mus musculus with 2 samples.

Results

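Nuclear-encoded oxidative phosphorylation (OXPHOS) genes were examined as a module in 2 single-cell RNA libraries of mouse skin. Members were all gene symbols of the deposited tables that begin with Ndufa, Ndufb, Ndufc, Ndufs, Ndufv, Uqcr or Atp5, or with Cox followed by a number from 4 to 8, leaving out the Ndufaf assembly factors and symbols with under 20 unique molecular identifiers (UMIs, 1 per captured transcript) over both libraries. The rule gave 82 of 33696 genes. They were 38 genes of complex I, 8 of complex III, 19 of complex IV, with Ndufa4 and Ndufa4l2 counted there, and 17 of complex V. Another 3 symbols matched the pattern and fell under the UMI limit: Cox7b2, Cox8c and Ndufb11b. The label is a class of gene names and needed no cell markers. The member symbols Cox5b-ps and Ndufb4b belong to near copies of other members, and how reads were divided between the copies is uncertain.

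Both libraries came from lesional skin, labelled UD, of mice whose skin was tape-stripped 40 to 50 times a day for 15 days, which the labels call scratching-induced. 1 library was from wild-type skin. The other was from skin of mice with whole-body Has2 overexpression, Has2 being a synthase of the matrix polymer hyaluronan, and is called here the library labelled Has2-transgenic. The labels give neither the promoter of the transgene nor the age, sex or number of the mice, and name the captured RNA differently, as total RNA for the wild type and polyA RNA for the other. With 1 library per genotype there is no replicate spread and no test. Every ratio below is the library labelled Has2-transgenic over the wild type unless stated, its interval is an exact 95% interval that covers counting error only, and "past" a fold means the size of the ratio alone.

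The wild-type library held 16999 barcodes with 143875454 UMIs and the other 14622 barcodes with 134917708 UMIs. After filters 15703 and 13584 barcodes were kept, of which 88.7% and 91.0% were assigned to a class by markers of that class in each cell, written below as neutrophils, macrophages and so on for neutrophil-like or macrophage-like cells. The libraries shared 79 barcodes. Has2 itself was at 73.1 CPM, the usual scale of UMIs per fixed total of UMIs of the same cells, over all kept wild-type cells and 85.8 CPM over those labelled Has2-transgenic, 1.17 times higher (1.14 to 1.21). In fibroblasts it was lower in the library labelled Has2-transgenic, at 189 and 146 CPM. It was higher there in keratinocytes, at 178 and 326 CPM (1.84, 1.43 to 2.40), in macrophages, at 0.169 and 1.84 CPM (7 and 60 UMIs), and in neutrophils, at 0.472 and 3.65 CPM (10 and 44 UMIs). The tables do not separate a transgene transcript from the endogenous one.

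In the mitochondrial inner membrane, complexes I, III and IV pass electrons to oxygen and pump protons, and complex V, the ATP synthase, uses the proton gradient to make ATP. Complex I takes electrons from NADH, complex III passes them to cytochrome c, and complex IV hands them to oxygen. Most subunits are encoded in the nucleus and a core set in mitochondrial DNA, so that both genomes supply each of these complexes. Neutrophils are known as cells with few mitochondria that rely on glycolysis, and osteoclasts, which resorb bone, as cells rich in mitochondria.

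Transcription factors known to act on many OXPHOS genes include NRF1 and the ETS family. Of the 82 members 67 were matched to a promoter window of RefSeq (GRCm38.p6), the 250 bases before a transcription start, and both strands were searched for 3 motifs. The NRF1 motif, GCGCA followed directly by its reverse complement TGCGC, which reads the same on both strands, was in a window of 4 of the 67 genes (5.97%) and of 0.877% of 27025 genes with a window. CCGGAAG, an ETS core, was in 11 (16.4%) and in 7.83% of all genes. ACGTG, a short core shared by hypoxia response elements and by the E-box CACGTG, which holds it on both strands, was in 14 (20.9%) and in 18.5% of all genes. A match describes letters and is no evidence of binding. Cox4i1, Cox4i2, Ndufa4l2, Uqcrc2 and Cox6a2 had no window. The 3 windows below belong to members that the results return to: Cox6a1, the widely expressed partner of the tissue isoform Cox6a2, Atp5g2, the complex V gene lowest in neutrophils against macrophages in the wild type, and Atp5g1, the member with the largest ratio of cells with osteoclast genes to other macrophages. Capitals mark the 3 motifs on either strand.
Cox6a1, chr5:115348959-115349208, minus strand: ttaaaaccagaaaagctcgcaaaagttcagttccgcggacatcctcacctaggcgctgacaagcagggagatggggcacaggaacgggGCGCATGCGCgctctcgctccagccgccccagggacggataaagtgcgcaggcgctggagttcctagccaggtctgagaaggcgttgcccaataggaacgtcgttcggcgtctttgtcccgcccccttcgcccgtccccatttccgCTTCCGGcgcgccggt
Atp5g2, chr15:102671048-102671297, minus strand: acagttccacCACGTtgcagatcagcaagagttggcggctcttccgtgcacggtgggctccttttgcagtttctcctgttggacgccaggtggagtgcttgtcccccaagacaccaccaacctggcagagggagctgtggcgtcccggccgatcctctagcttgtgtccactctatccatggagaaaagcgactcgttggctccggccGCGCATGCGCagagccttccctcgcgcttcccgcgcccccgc
Atp5g1, chr11:96075632-96075881, minus strand: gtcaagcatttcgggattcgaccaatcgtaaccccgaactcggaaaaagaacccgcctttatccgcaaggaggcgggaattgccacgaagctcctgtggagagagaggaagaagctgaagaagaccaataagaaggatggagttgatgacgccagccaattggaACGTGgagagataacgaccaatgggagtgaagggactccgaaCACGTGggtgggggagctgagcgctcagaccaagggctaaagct
The windows of Cox6a1 and Atp5g2 hold the NRF1 motif, that of Cox6a1 also the ETS core, and those of Atp5g2 and Atp5g1 the ACGTG core, in Atp5g1 once within CACGTG.

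Nuclear OXPHOS transcripts took a small share of the transcripts of neutrophils and a larger share in each of the other 9 classes plotted here. The level was not computed for 23 and 14 erythroid-like cells. The summed level of all members in neutrophils was 3571 CPM (3546 to 3597, 6452 cells) in the wild type and 3378 CPM (3346 to 3411, 5430 cells) in the library labelled Has2-transgenic. Mast cells came next, at 10626 and 10017 CPM, from 12 and 36 cells. Wild-type levels then ran from 15745 CPM in fibroblasts through Schwann cells (15952), dendritic cells (16450), macrophages (17216), T cells (17477), endothelial cells (20053) and keratinocytes (21146, 19 cells) to 21262 CPM in pericytes (25 cells). In the library labelled Has2-transgenic keratinocytes stood first, at 23884 CPM from 183 cells, and fibroblasts were lowest after neutrophils and mast cells, at 13780 CPM. Keratinocytes and pericytes did not differ beyond their counting intervals in the wild type, nor did macrophages and T cells, or Schwann cells and either neighbour in that order. Set against fibroblasts of the same library, the neutrophil level was 0.227 (0.225 to 0.229) in the wild type and 0.245 (0.243 to 0.248) in the other. The median kept neutrophil held 9 OXPHOS UMIs in the wild type and 6 in the other, at median depths of 3082 and 2067 UMIs, and the median macrophage 137 and 103, at 8505 and 7286 UMIs.

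**Figure D1:**
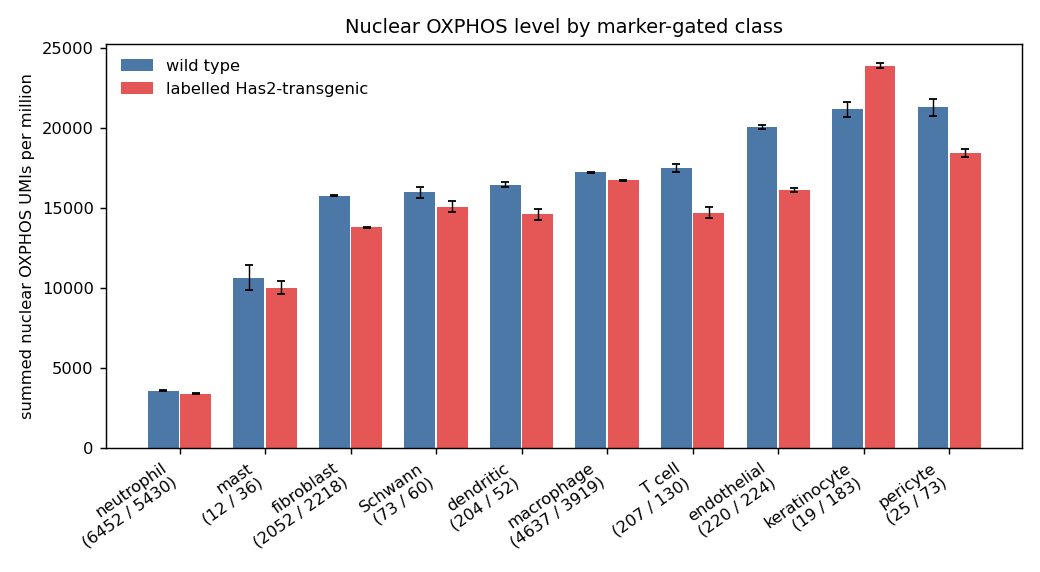
Summed UMIs of the 82 nuclear OXPHOS genes as CPM of each marker-gated class (y axis), for the wild type and the library labelled Has2-transgenic, with the number of cells of each (wild type / labelled Has2-transgenic) under the name. Error bars are exact 95% Poisson intervals for counting error only. Neutrophils sit at 3571 and 3378 CPM, below the other 9 classes shown.

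The low level of neutrophils ran through nearly the whole module. Of 78 members with at least 20 UMIs in neutrophils, 72 were at under 0.5 of the macrophage level in both libraries, while 48.2% of 11259 genes were under it in the wild type and 49.3% in the library labelled Has2-transgenic. The median member stood at 0.152 and 0.140 of the macrophage level, the median of all genes at 0.533 and 0.512. By complex the medians in the wild type were 0.123 for complex I, 0.178 for complex III, 0.217 for complex IV and 0.151 for complex V. In the wild type the lowest members were Ndufc2, a membrane-arm subunit of complex I, with a ratio of 0.0367 (0.0301 to 0.0443) there and 0.0378 (0.0295 to 0.0477) in the other library, then Ndufa5, Ndufab1, which is also the mitochondrial acyl carrier protein, and Ndufa9. In the library labelled Has2-transgenic Ndufa9 was lowest, at 0.0297, followed by Ndufa12 at 0.0377, on 14 and 32 neutrophil UMIs. Atp5g2, one of 3 genes for the same mature c subunit of the ATP synthase rotor, was at 12.7 and 16.1 CPM in neutrophils and 238 and 285 CPM in macrophages. Ndufb9 and Cox8a, an accessory subunit of complex IV, were the highest of the well-measured members against macrophages, both at 0.59 in the wild type. Cox8a was at 426 and 449 CPM in neutrophils and 715 and 760 CPM in macrophages. The 3 members that were not lower in both libraries, Cox4i2, Ndufa4l2 and Cox6a2, rested on 8 to 17 neutrophil UMIs in each library.
The subunits encoded in mitochondrial DNA followed the same direction with a smaller distance. All 13 were lower in neutrophils than in macrophages in both libraries, where 7503 and 7516 of 11259 genes were lower, with medians of 0.508 and 0.703. The 4 complex II genes, which are nuclear and also serve the citric acid cycle, were close to the module, with medians of 0.196 and 0.192. Of 15 glycolysis genes 9 were lower in both libraries. The counts of all genes above are for each library alone, so they give no share for genes lower in both. The glycolysis medians were 0.562 and 0.516, beside 0.533 and 0.512 for all genes. Slc16a3, a lactate exporter, was higher in neutrophils at 2.59 and 2.30 times the macrophage level. Cytosolic ribosomal protein genes, set against fibroblasts of the same library, were at 0.0878 and 0.0932 in neutrophils. The module was at 0.227 and 0.245 on that scale, so the low level was not particular to OXPHOS genes. Summed macrophage markers were at 393 and 297 CPM in neutrophils and at 6531 and 8991 CPM in macrophages. Their part in the lowest member ratios was not tested.

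**Figure D2:**
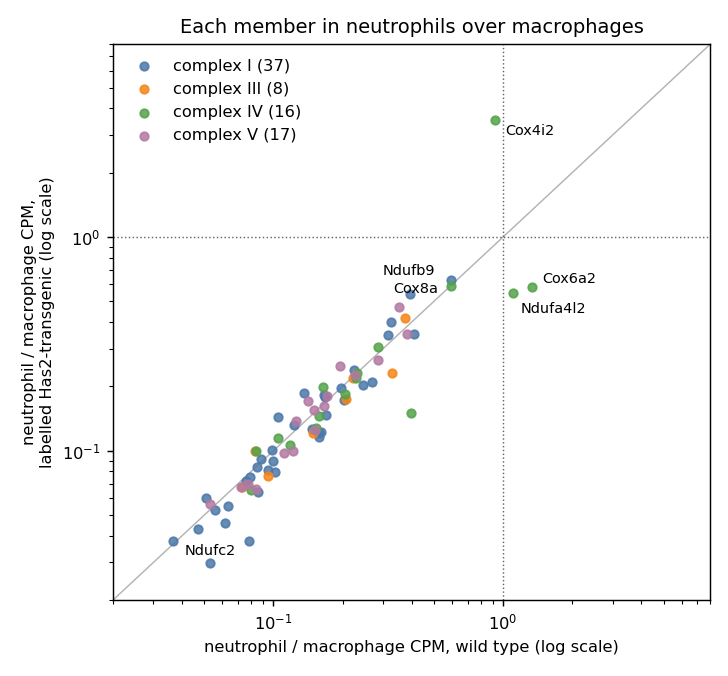
Each of the 78 members measured in neutrophils, as its neutrophil CPM over its macrophage CPM in the wild type (x axis, log scale) and in the library labelled Has2-transgenic (y axis, log scale), coloured by complex, with dotted lines at a ratio of 1. Most members lie near the diagonal between 0.03 and 0.6, and Cox4i2, Ndufa4l2 and Cox6a2 stand apart on few UMIs.

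In the library labelled Has2-transgenic, cells with osteoclast genes had a higher OXPHOS level than any class or cluster. It was first seen as a macrophage cluster, cluster 6, from a clustering that left all OXPHOS genes out. That cluster held 148 wild-type cells at 14151 CPM and 575 cells labelled Has2-transgenic at 30184 CPM. The other 5 macrophage clusters had ratios from 0.829 to 0.881. In cluster 6, 69 of 78 measured members were past 1.5-fold higher, against 32.1% of 10174 genes. The median log2 ratio was 1.15 for the members and 0.13 for all genes. Of the cells with osteoclast genes described next, 119 labelled Has2-transgenic and 2 wild-type ones lay in this cluster, so that its makeup differed between the libraries.
Cells were then taken one by one, among macrophages and unassigned cells, where Ctsk, the gene of the bone and matrix protease cathepsin K, was at 1000 CPM or more, at least 1 of Acp5, Atp6v0d2 and Nfatc1 had a UMI and Col1a1 was under 500 CPM. This gave 9 wild-type cells and 137 cells labelled Has2-transgenic, of which 2 and 71 were in the macrophage class. The limits were chosen after the OXPHOS level had been seen under 9 settings, over which it ran from 37688 to 42323 CPM in 103 to 202 cells of the library labelled Has2-transgenic, and from 17624 to 36136 CPM in 2 to 75 wild-type cells. With the chosen limits the level was 40334 CPM (40110 to 40559) in the cells labelled Has2-transgenic and 22046 CPM in the 9 wild-type cells, below the 26675 CPM of 5 wild-type muscle cells. The remaining macrophages labelled Has2-transgenic were at 15515 CPM, a ratio within that library of 2.60 (2.58 to 2.62). The middle 50% of cells had between 2.97% and 4.52% of their UMIs in the module, and the remaining macrophages between 1.15% and 1.81%, so the quartile ranges did not overlap. The groups differed in depth, with medians of 19759 and 7216 UMIs. Among cells with 5000 to 20000 UMIs the levels were 34247 CPM in 68 cells and 15353 CPM in 2849 cells.
Of 80 members measured in this comparison within the library labelled Has2-transgenic, 74 were past 1.5-fold higher, against 38.6% of 12851 genes, and 62 were past 2-fold, against 25.6%. The median log2 difference was 1.39 for the members and 0.25 for all genes. Atp5g1, another c-subunit gene, differed most, at 883 CPM in the cells with osteoclast genes and 174 CPM in the rest, 5.07 times higher (4.84 to 5.31). Uqcrc2, a core protein of complex III, was at 217 and 43.7 CPM (4.97), Ndufs7, an iron-sulphur subunit of complex I, at 355 and 72.1 CPM (4.93), and Ndufa12 at 290 and 59.3 CPM (4.89). Among the members with over 500 UMIs in these cells, Ndufa1 had the smallest ratio, at 277 and 233 CPM (1.19, 1.11 to 1.28). Ndufb1 was at 1.47, and Cox7a2l at 1.60. The 3 measured members with lower values were Cox6b2, at 2.93 and 7.01 CPM, Ndufa4l2, with 0 and 84 UMIs, and Cox6a2, with 0 and 37.
Other lists are read against the same 38.6% of all genes past 1.5-fold. Of 16 citric acid cycle genes 16 were past 1.5-fold, with a summed ratio of 3.97, and the 4 complex II genes were at 3.77. The electron carrier list was at 4.05, with Cycs (cytochrome c) at 1013 and 252 CPM, and mitochondrial ribosomal proteins had 75 of 78 past 1.5-fold. Mitochondrially encoded subunits had 7 of 13 past 1.5-fold, near that background, and a summed ratio of 1.39. Cytosolic ribosomal protein genes also stood higher, at 1.96, with 76 of 82 past 1.5-fold, so the rise was not particular to mitochondrial genes. Glycolysis genes were at 1.501, with 7 of 15 past 1.5-fold. Of 11 measured regulators of mitochondrial biogenesis 5 were past 1.5-fold, also near it. Ppargc1b, a coactivator known to raise mitochondrial gene expression in osteoclasts, was at 97.6 and 3.14 CPM, 31.1 times higher (24.7 to 39.6), and Ppargc1a had 1 UMI in these cells and 3 in the rest. C1qa, a macrophage complement gene, was at 130 CPM and at 1880 CPM in the rest. It is a marker of the macrophage class, to which all of the rest but only 71 of the 137 cells belonged. The C1qa difference is thus partly set by how the groups were formed.

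**Figure D3:**
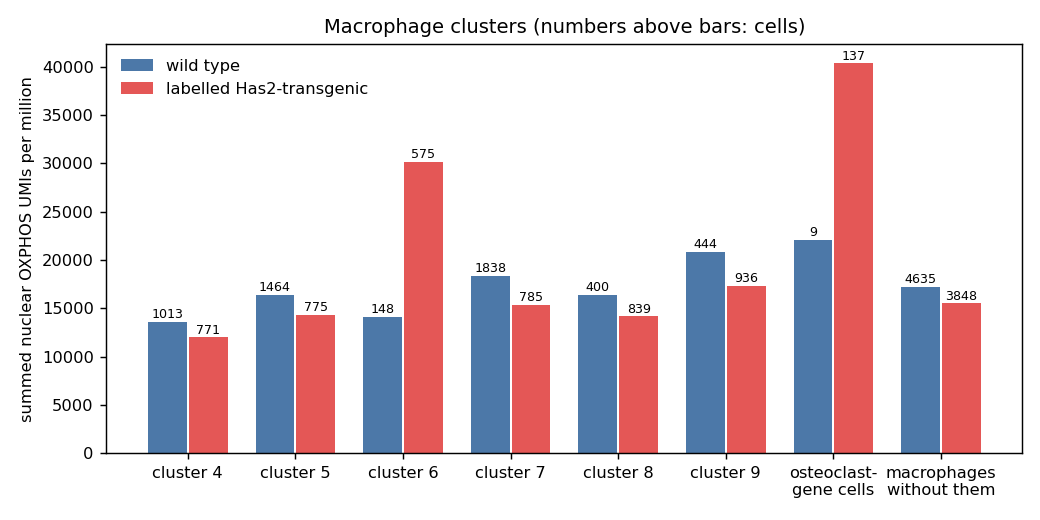
Summed nuclear OXPHOS CPM (y axis) in the 6 macrophage clusters, in cells with osteoclast genes and in the macrophage class without them, by library, with cell numbers above the bars. Cluster 6 stands at 14151 and 30184 CPM in the 2 libraries and the 137 cells with osteoclast genes labelled Has2-transgenic reach 40334 CPM, while the other 5 clusters are lower in that library.

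Between the libraries the module was lower in the library labelled Has2-transgenic in all 5 classes with at least 100 cells in each library, by less than 1.5-fold. The ratio was 0.946 (0.935 to 0.958) in neutrophils and 0.970 (0.967 to 0.974) in macrophages. It was 0.875 (0.872 to 0.878) in fibroblasts, 0.841 (0.817 to 0.865) in T cells and 0.804 (0.796 to 0.812) in endothelial cells. Over all kept cells it was 0.997. Neutrophils fell into different clusters in the 2 libraries, with 2226 and 139 cells in cluster 11. Within the 6 neutrophil clusters the ratio was 0.857 (0.835 to 0.879) in cluster 14 and 0.969, 0.996, 1.01, 1.04 and 1.08 in the others, and 0.981 at equal cluster makeup. The direction also turned in neutrophils of 5000 to 20000 UMIs (1.57, from 591 and 118 cells), and in macrophages when classes were named from clusters (1.02). Cytosolic ribosomal protein genes, nuclear genes of an unrelated machinery, had ratios close to these in 4 of the classes, at 0.946 in neutrophils, 0.890 in fibroblasts, 0.904 in T cells and 0.812 in endothelial cells, and of 1.09 in macrophages. In neutrophils the median ribosomal gene was level, with 42 of 83 genes higher and 41 lower, while 51 of 78 OXPHOS members were lower. The mitochondrially encoded subunits did not follow in 3 classes, at 1.20 (1.18 to 1.21) in neutrophils, 1.02 in macrophages and 1.04 in endothelial cells, and were lower in T cells (0.861) and fibroblasts (0.963). In macrophages and endothelial cells the sum and the median gene differed in sign, with median log2 ratios of -0.0012 and -0.07. Fewer UMIs of a list in a class cannot be told apart from more UMIs of other genes in it, since CPM are shares.
Single members rarely passed 1.5-fold. In neutrophils 2 of 78 were past it on the higher side, against 15.3% of all genes, and 6 on the lower side, against 12.1%. In macrophages 3 of 81 were higher, against 16.8%, and 1 lower, against 6.25%. Fibroblasts had 3 of 81 higher, against 18.3%, and 4 lower, against 9.43%. In T cells 0 of 74 were higher, against 12.0%, and 10 lower, against 12.6%, and in endothelial cells 1 of 79 was higher, against 14.5%, and 10 lower, against 7.41%. The shares past the fold were thus below or near the background on both sides, except on the lower side in endothelial cells. The members on the higher side were all complex IV isoforms, named here whether or not they had 100 UMIs: Cox4i2 and Ndufa4l2 in neutrophils, Ndufa4l2, Cox6a2 and Cox6b2 in macrophages, Cox4i2, Cox6b2 and Ndufa4l2 in fibroblasts, and Cox6b2 in endothelial cells. At a fold of 2 the lower side held 0 members in neutrophils (4.22% of all genes), macrophages (2.21%) and T cells (4.30%). It held 1 each in fibroblasts (2.68%) and endothelial cells (1.89%). The higher side held 1 in macrophages (6.98%), Ndufa4l2. Also past 2-fold higher were Cox4i2 and Ndufa4l2 in neutrophils, Cox4i2, Cox6b2 and Ndufa4l2 in fibroblasts, and Cox6b2 in endothelial cells. The share of all genes past 2-fold higher was not counted in these 3 classes. With at least 100 UMIs, 0 were past 1.5-fold higher in neutrophils (10.5%) and 0 in endothelial cells (9.66%). The median log2 ratio of the members was -0.11 in neutrophils, -0.04 in macrophages, -0.24 in T cells, -0.21 in fibroblasts and -0.36 in endothelial cells, beside 0.01, 0.07, -0.02, -0.03 and 0.03 for all genes. For genes with at least 1000 UMIs in the class the medians were -0.03, -0.02, -0.06, -0.12 and -0.03 in the same order. Against these abundant genes the members of macrophages and fibroblasts stood less far apart than against all genes. Of 74 members measured in all 5 classes, 27 were lower in all of them, against 10.2% of 6523 genes, and 1 was higher in all, against 5.49%. In at least 4 classes 48 were lower, against 32.5%, and 3 higher, against 18.5%. The gene higher in all was Ndufs8, an iron-sulphur subunit of complex I, at 112 CPM in endothelial cells of both libraries, 1.11 times higher in neutrophils, and between these in the other 3. Ndufv1, the subunit that binds NADH, was higher in all but fibroblasts, at 1.21 in macrophages and 1.23 in endothelial cells.

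**Figure D4:**
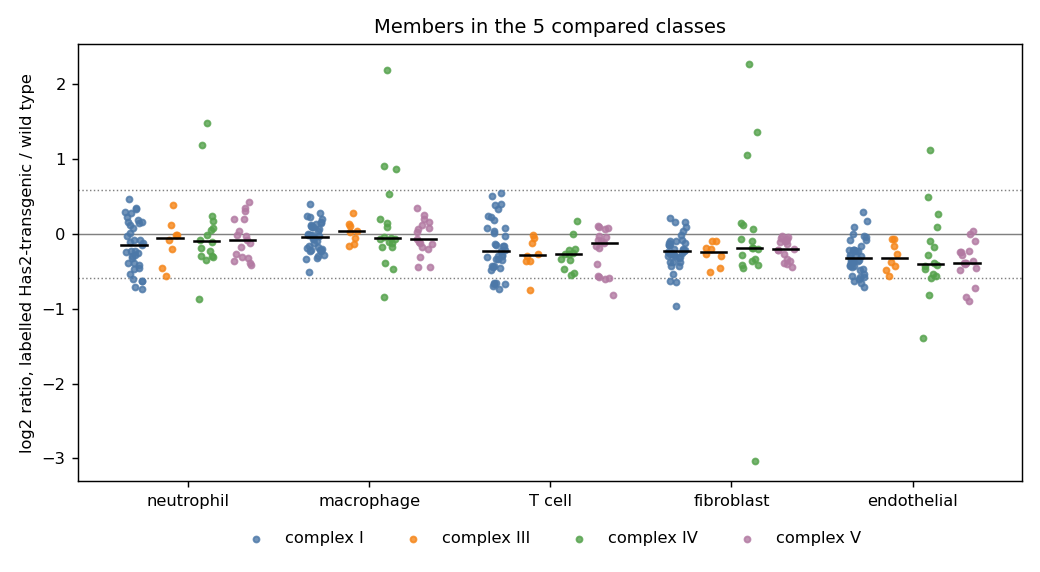
Log2 ratio of each measured member, library labelled Has2-transgenic over wild type (y axis), in the 5 compared classes and coloured by complex, with black bars at each complex's median and dotted lines at 1.5-fold. Most members lie within the dotted lines, the medians of endothelial cells are the lowest, and the points beyond 1 on the higher side are complex IV genes.

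In fibroblasts the cluster makeup of the class differed between the libraries, and its part in the lower level was not tested. 2 clusters, 2 and 23, held 838 and 798 cells labelled Has2-transgenic and 11 and 3 wild-type cells, at 11150 and 14468 CPM in the library labelled Has2-transgenic. Within the 3 clusters that both libraries filled, the ratios were 1.10 (785 and 296 cells), 1.03 (702 and 160 cells) and 0.934 (663 and 132 cells, of a median depth of 1199 UMIs). The direction of the fibroblast result thus held in 1 of these 3 clusters and turned in the other 2. Weighted to the same cluster makeup the ratio was 1.02, against 0.875 for the class. That weighting left out clusters with under 20 fibroblasts in either library, among them 2 and 23. The 1.02 therefore does not cover most fibroblasts labelled Has2-transgenic and cannot be read for the whole class. Single fibroblast members past 1.5-fold lower with 100 UMIs or more were Ndufs1, the largest iron-sulphur subunit of complex I, at 36.7 and 23.5 CPM (0.641), Ndufa5 at 82.5 and 53.6 CPM (0.650) and the near copy Ndufb4b (0.515). Cox6a2 was past it on 49 and 7 UMIs. Of 8 complex III genes and 17 complex V genes every one was lower in fibroblasts. Mitochondrial ribosomal proteins were lower too, with 75 of 78 below 1, where 8663 of 16509 genes were lower, and Cycs was the lowest of the electron carriers, with a log2 ratio of -0.69.
In endothelial cells all 4 complexes were lower by like amounts, at 0.792 for complex I, 0.793 for III, 0.831 for IV and 0.791 for V. Atp5k, the e subunit of the ATP synthase membrane part, was at 65.6 and 35.3 CPM (0.537, 0.435 to 0.660), Atp5mpl at 249 and 139 CPM (0.559), Atp5g1 at 340 and 206 CPM (0.605) and Ndufc1 at 129 and 79.1 CPM (0.613). Mitochondrial ribosomal proteins had 71 of 78 lower, where 5351 of 11367 genes were lower, and 19 past 1.5-fold lower, against 7.41% of all genes. Summed fibroblast markers in endothelial cells were at 111 and 288 CPM and summed neutrophil markers at 1210 and 805 CPM, and their part in the result was not tested. Ndufa8 stood out by class: endothelial cells had 242 and 206 CPM, at least 2.57 times the median of the other classes in each library.
In T cells (207 and 130 cells) Atp5g1 was at 180 and 102 CPM (0.566, 0.3999 to 0.789), Uqcrfs1, the Rieske iron-sulphur protein of complex III, at 278 and 165 CPM (0.593), and Ndufb1 at 244 and 145 CPM (0.596). The 4 highest ratios there among members with 100 UMIs or more, those of Ndufs3, Ndufb8, Ndufv2 and Ndufa7, had intervals that include 1. Glycolysis genes went the other way in T cells, at 2791 and 3982 CPM in sum (1.43, 1.34 to 1.52), with 3 of 14 past 1.5-fold higher, against 12.0% of all genes. Neutrophil markers in T cells summed to 201 and 531 CPM and fibroblast markers to 66.0 and 124 CPM, and their part in these results was not tested.
In macrophages Ndufb1 (197 and 139 CPM, 0.704) and Atp5mpl (286 and 211 CPM, 0.737) were among the 4 lowest ratios of members with 100 UMIs or more, with the near copy Cox5b-ps (3.43 and 1.90 CPM, 0.555) and Cox7a1 (9.01 and 6.48 CPM, 0.719). In the whole class 46 of 81 members were lower, where 6034 of 14280 genes were lower. Without the cells with osteoclast genes the ratio of the module in the class was 0.901 (0.898 to 0.905), and 64 of 81 members were lower. The share of all genes lower without these cells was not counted. Atp5g1 and Atp5g3, the member of complex V with most UMIs, then went from 1.06 to 0.886 and from 1.02 to 0.886, and Ndufa12 from 1.32 to 1.12.
In neutrophils the lowest ratios among members with 100 UMIs or more were, after Cox7a2l, those of Ndufc1 (0.599), Ndufa12 (0.638) and Ndufs4 (0.646). Atp5d, the delta subunit of the ATP synthase, was highest, at 40.5 and 54.4 CPM (1.34, 1.21 to 1.49). Uqcrh, the hinge protein and the complex III member with most UMIs, was at 128 and 86.3 CPM in neutrophils (0.676) and between 0.829 and 0.959 in the other 4 classes. Cox4i1, the member with most UMIs of all, was between 0.868 and 1.11 in the 5 classes, and Ndufa7, the complex I member with most UMIs, between 0.859 and 1.23.

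Complex IV has several subunits with alternative isoforms, and these held the members past 1.5-fold higher named above. Shares below are of UMIs, not corrected for length. Ndufa4l2, a paralog of the complex IV subunit Ndufa4 known to be induced by hypoxia, was at 68.3 CPM in wild-type fibroblasts and 143 CPM in fibroblasts labelled Has2-transgenic (2.09, 2.003 to 2.17). Its share of the UMIs of Ndufa4 and Ndufa4l2 together was 14.2% (13.7 to 14.7) and 31.4% (30.8 to 32.0) there, and 42.1% (34.2 to 50.4, 25 cells) and 72.5% (68.7 to 76.1, 73 cells) in pericytes. In endothelial cells it was 1.59% and 1.34%, and in macrophages 0.154% and 0.743%. The highest shares were thus in pericytes and fibroblasts. Keratinocytes were at 4.56% and 10.4%. Neutrophils were at 2.10% and 5.90% (13 and 17 UMIs), and Schwann cells at 0.752% and 6.37% (1 and 13 UMIs). Within fibroblast cluster 0 Ndufa4l2 was at 78.1 and 178 CPM, within cluster 3 at 62.5 and 51.7 CPM, and the mostly Has2-transgenic clusters 2 and 23 had 55.4 and 221 CPM, so the difference in the class was not found in every cluster. Macrophage Ndufa4l2, at 0.555 and 2.58 CPM, moved with the fibroblast markers in that class, which summed to 37.0 and 65.0 CPM, and neutrophil Ndufa4l2, at 0.614 and 1.41 CPM, with 77.3 and 198 CPM of them, and their part in these values was not tested.
Cox4i2, the isoform of the complex IV subunit Cox4i1 known from lung and from oxygen sensing, was also highest in pericytes. They had 86.8 and 308 CPM, which is 9.15% (6.12 to 13.0) and 22.8% (20.6 to 25.02) of the pair. Fibroblasts had 1.20 and 5.84 CPM (4.87, 3.67 to 6.59), or 0.177% and 0.790% of the pair. The wild-type fibroblast share was below that of endothelial cells (0.513%, 0.314 to 0.791). It did not differ beyond counting error from that of neutrophils (0.193%, 0.0835 to 0.381, 8 UMIs). Keratinocytes had 0 UMIs in both libraries. Summed pericyte markers in fibroblasts were at 30.4 and 46.2 CPM, and their part in the result was not tested. The 1698 and 1500 fibroblasts with no UMI of the 8 pericyte markers had median depths of 15539.5 and 22600 UMIs. In them Cox4i2 was at 0.909 CPM (0.609 to 1.31) and 5.73 CPM (4.96 to 6.58). In the 284 and 541 with 1 such marker it was at 0.604 CPM (0.243 to 1.24) and 5.997 CPM (4.91 to 7.25). In the 70 and 177 with 2 or more it was at 6.23 CPM (3.81 to 9.62) and 6.06 CPM (4.22 to 8.43). The libraries thus did not differ beyond counting error in fibroblasts with 2 or more pericyte markers, where wild-type Cox4i2 was highest. Cluster 23 had 274 Cox4i2 UMIs in the library labelled Has2-transgenic, or 11.1 CPM. Within cluster 0 the levels were 1.58 and 4.67 CPM. Endothelial cells went the other way on 20 and 6 UMIs.

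**Figure D5:**
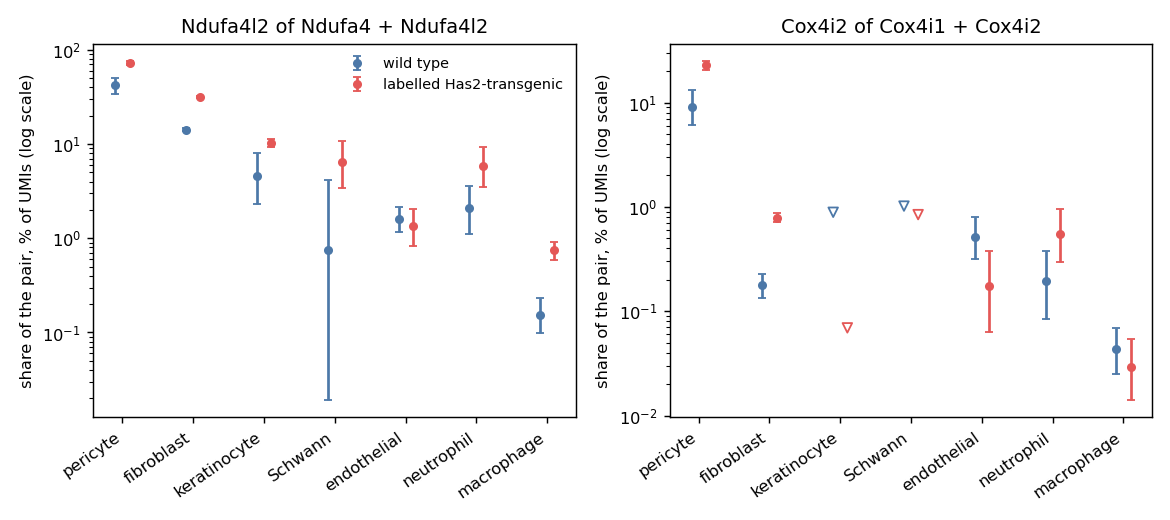
Ndufa4l2 as a percentage of Ndufa4 and Ndufa4l2 UMIs (left) and Cox4i2 as a percentage of Cox4i1 and Cox4i2 UMIs (right), both on log axes, in 7 classes of each library. Points are shares with exact 95% binomial intervals and open triangles the upper limit where no UMI was found. Pericytes are highest for both, at 42.1% and 72.5% for Ndufa4l2 and at 9.15% and 22.8% for Cox4i2.

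Cox7a2l, a relative of Cox7a2 known to join complexes III and IV into supercomplexes, differed between the libraries in opposite directions by class. In neutrophils it was at 45.1 and 24.6 CPM (0.546, 0.477 to 0.622), and in macrophages at 114 and 164 CPM (1.44, 1.39 to 1.502). Endothelial cells had 171 and 240 CPM (1.41, 1.28 to 1.55), fibroblasts 125 and 139 CPM (1.11, 1.07 to 1.15), and T cells 269 and 301 CPM, with an interval from 0.903 to 1.39. Its partner Cox7a2 was lower in all 5 classes, from 0.688 in endothelial cells to 0.919 in macrophages. The share of Cox7a2l in the 2 genes' UMIs was thus 37.1% and 26.8% in neutrophils and 27.4% and 43.6% in endothelial cells. T cells had the highest Cox7a2l level of the 5 compared classes in both libraries.
The muscle and heart isoforms were rare. Of the 5 compared classes Cox7a1 was highest in macrophages, at 9.01 and 6.48 CPM, which is 2.61% and 2.05% of its pair with Cox7a2. Cox8b had at most 7 UMIs in any of the 5 classes of either library. Cox6b2, known from testis, was at 2.18 and 5.64 CPM in fibroblasts (2.58, 2.06 to 3.26) and at 3.77 and 6.88 CPM in macrophages (1.83, 1.48 to 2.25). Cox6a2, the isoform of heart and skeletal muscle, was at 210 and 281 CPM in 5 and 11 muscle cells. It was also found in cells with Siglech, a receptor of plasmacytoid dendritic cells, at 442 CPM (377 to 514) in 32 wild-type cells and 873 CPM (668 to 1122) in 12 cells labelled Has2-transgenic, and at 0.605 and 0.465 CPM in all other kept cells. These cells were found by looking at which cells held Cox6a2, so the difference is a description of how they were chosen. In them Cox6a2 made up 49.0% and 73.5% of the UMIs of Cox6a1 and Cox6a2, and 21 of the 32 and 11 of the 12 held a Cox6a2 UMI.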

How the data were processed

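Per the labels' protocols, skin was dissociated with enzymes and captured with a droplet-based single-cell 5′ kit. The authors deposited 1 matrix of UMI counts per library, made with Cell Ranger 9.0.1 on GRCm39 per the submitters' processing notes. Barcodes under 200 detected genes or over 15% mitochondrial UMIs were removed, and in each library the highest Scrublet scores (scanpy 1.11.5), 1134 and 831 barcodes, were removed at an expected rate of 0.4% per 1000 barcodes, since Scrublet's own threshold marked 231 and 0. A cell entered a class when at least 3 of the class's markers were found and its score, the mean of each marker's CPM over its 90th percentile limited to 1, was at least 1.5 times the next class's score. Of the kept macrophages 242 and 211 lay near that limit, and of the fibroblasts 176 and 80. The members, markers, lists and named-gene rule were chosen with earlier results of these data known. The scoring rule and its limits were set after seeing the data, from a pair of rules each tried at several leads and judged on cell counts and cluster overlap. The limits of the cells with osteoclast genes and with Siglech were set after values were seen, the former from 9 settings, as was the naming of 2 clusters in which markers took over 40% of the cells and over 60% of those assigned.

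UMIs were summed per class and library and given as CPM of all UMIs of the class. Intervals are exact Poisson, binomial or conditional binomial (Clopper-Pearson) ones. Members were measured in a class with at least 20 UMIs over both libraries. Log2 ratios of members carry 0.5 UMI added to each count. Leiden clusters used 30 components, 15 neighbours and a resolution of 1, without OXPHOS genes. Named members were the isoform pairs, the 4 highest and 4 lowest ratios per class with at least 100 UMIs, the 3 highest per class against the median of other classes, the member with most UMIs per complex, and those against their complex's direction in at least 4 classes. The ratio step was tested on simulated data.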

Additional observations from a re-analysis of the deposited data

Results flagged for a closer look

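These results are listed because the 2 libraries differed in opposite directions in different cell classes, with counting intervals on both sides of a ratio of 1 and at least 1 class past 1.5-fold. With 1 library per genotype the difference between classes was not tested. Cox7a2l had a ratio of 0.546 in neutrophils, 1.44 in macrophages, 1.11 in fibroblasts and 1.41 in endothelial cells. Ndufa12 was at 0.638 in neutrophils, 0.774 in fibroblasts, 0.674 in endothelial cells and 1.32 in macrophages. Atp5g1 was at 0.566 in T cells, 0.795 in fibroblasts, 0.605 in endothelial cells and 1.06 in macrophages. Atp5g3 was at 0.803 in neutrophils, 0.660 in T cells, 0.766 in fibroblasts, 0.733 in endothelial cells and 1.02 in macrophages. Without the cells with osteoclast genes the macrophage ratios of Cox7a2l, Ndufa12, Atp5g1 and Atp5g3 were 1.402, 1.12, 0.886 and 0.886, so that the last 2 then had the direction of the other classes.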

How the results depend on the processing

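No paired analysis was possible because each genotype has 1 library. The module's ratio stayed below 1 under all 10 alternatives in T cells (0.822 to 0.871) and in endothelial cells (0.747 to 0.815), under 10 of 11 in neutrophils, 11 of 12 in macrophages and 11 of 12 in fibroblasts. The exceptions were 1.57 in neutrophils of 5000 to 20000 UMIs, which were 9.16% of the wild-type class (591 cells) and 2.17% of the other (118 cells), 1.02 in macrophages by cluster and 1.02 in fibroblasts at equal cluster makeup. The cause was not tested. Classes named from clusters gave 0.871 in T cells and 0.782 in endothelial cells, and a median log2 ratio of 0.037 in macrophages. Members past the fold on the lower side were then 10 in neutrophils, 2 in macrophages and 3 in T cells, with 1 on the higher side in T cells. The shares of all genes past the fold were not counted for classes named from clusters, so these counts have no background. In cells of 5000 to 20000 UMIs the ratios were 0.921 in macrophages, 0.834 in fibroblasts, 0.747 in endothelial cells and 2.23 for cells with osteoclast genes over other macrophages. Divided by the median ratio of all genes they were 0.921 in macrophages, 0.894 in fibroblasts and 0.786 in endothelial cells. The mean of per-cell CPM gave 0.904, 0.801 and 0.777 in these 3 classes, thinning to 1000 UMIs 0.907, 0.824 and 0.784, and leaving out mitochondrial, ribosomal protein and haemoglobin UMIs 0.979, 0.857 and 0.776. Without Scrublet removal fibroblasts were at 0.884 and endothelial cells at 0.815. Equal cluster makeup gave 0.981 in neutrophils and 0.906 in macrophages, macrophages without the cells with osteoclast genes 0.901, and fibroblasts without cluster 1 0.881. With at least 100 UMIs, 0 members were past the fold on the higher side in neutrophils and 0 in endothelial cells. At a fold of 2 the lower side had 0 in neutrophils, macrophages and T cells and 1 each in fibroblasts and endothelial cells. The higher side had 1 in macrophages, beside the complex IV isoforms named above in neutrophils, fibroblasts and endothelial cells. Neutrophils over fibroblasts in the wild type and the other library were 0.205 and 0.219 by cluster, 0.200 and 0.237 as means of cells, 0.206 and 0.237 when thinned, and 0.193 and 0.213 without the abundant genes. T cells over fibroblasts in the wild type were 0.982 as means of cells. The alternatives on cells with osteoclast genes, cluster makeup, cluster 1, shared barcodes and Cox7a2l were chosen after seeing the data.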

Other observations

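Transcript length and GC content of the members were set against their ratio in each of the 5 classes, 10 relations over 62 to 78 members that share their libraries. Spearman's rho ran from -0.09 to 0.40 across members, the highest for GC content in fibroblasts, and is given as a description only.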
